A study of Mus musculus with 6 samples.

Results

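The genes described here repair broken or crosslinked DNA by homologous recombination and the Fanconi pathway, or signal such damage to the cell cycle. They were taken by name as a set of 33 mouse gene symbols; the rule uses no measured value, but the set was drawn up with earlier results of these data known. All 33 were among the 18124 genes of the deposited table and passed the filter on low counts. Their RNA was measured by bulk sequencing in mesenchymal stem cells sorted from the quadriceps of 6 male Col1-eGFP mice as cells positive for collagen 1-driven green fluorescent protein and for Sca-1. The sorted cells, expanded to passage 4, spent 72 hours in medium conditioned either by control bone marrow-derived macrophages or by macrophages made senescent with hydrogen peroxide (300 µM for 3 hours, repeated after 3 days, then 14 days of culture); all macrophages came from wild type mice and were differentiated for 7 days with M-CSF. There were 3 libraries for each medium. The conditioned medium was pooled from repeated collections. Nothing in the labels ties the 3 libraries of a medium to separate mice or cultures; a p-value therefore reflects only how much these libraries vary, and that variation may be technical. They also do not say whether control macrophages were kept in culture as long as the senescent ones.

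Homologous recombination repairs a double-strand break by copying the intact sister chromatid, and so works mainly in S and G2 phase. The MRN complex finds the break, nucleases trim its ends, and BRCA1, PALB2 and BRCA2 prepare the exposed single strand to invade the sister. The Fanconi pathway unhooks crosslinks between DNA strands at stalled replication forks, and the kinases ATM and ATR halt the cell cycle through CHEK2 and CHEK1. Many genes of these pathways are transcribed under E2F factors as cells enter S phase, while others are transcribed throughout the cycle. From such general knowledge 20 members were assigned to an S-phase-linked class and 13 to a constitutive class. Because RNA was measured in bulk, fewer cells in S phase and less RNA per cell cannot be told apart.

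The libraries held 17228162 to 21659434 estimated counts. Collagen 1 and Sca-1 transcripts (Col1a1, Ly6a) reached at least 93884 and 20712 counts in every library. Of the 9 stromal markers tested 5 were higher in senescent medium (Col1a1, Col1a2, Thy1, Dcn and Cd34, log2 fold changes of 0.22 to 0.54), 3 were lower (Pdgfra −0.29, Pdgfrb −0.30 and Dpt −0.85) and Ly6a did not pass. Of the 12 macrophage markers, 7 were not listed, among them Ptprc, Adgre1 and Itgam, and the 4 tested ones summed to 17.8 to 23.8 CPM (counts per 1000000) in every library. These 4 moved in opposite directions: Lyz2 rose (0.80 ± 0.12, SE), Cd14 (−1.14 ± 0.16) and Csf1r (−0.53 ± 0.19) fell, and Cd68 did not pass. Of the 8 myogenic markers only Des was listed (1.41 to 1.89 CPM in control medium and 4.33 to 5.86 CPM in senescent medium), and 3 of 7 endothelial markers were tested, at a sum of 24.2 to 32.9 CPM, of which Kdr rose from 0.710 to 1.68 CPM and Tek and Vwf did not pass. The part of these other transcripts in the results below was not tested.

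Most of the repair genes were lower in senescent macrophage medium. Of the 33 members 24 fell, 1 rose (Atr) and 8 did not pass the threshold (edgeR quasi-likelihood test, Benjamini-Hochberg adjusted p below 0.05 over 14644 genes). The fallen members made up 72.7% of the list, where 24.9% of all tested genes were called lower, 24.6% higher and 49.5% in either direction. Their median log2 fold change was −0.78, against 0.00 over all tested genes. In 26 members all 3 senescent-medium libraries lay below all 3 control libraries, as they did in 28.0% of all genes, and in 2 members they all lay above (27.8% of all genes). Of the members, 11 fell to a log2 fold change of −1 or lower, a size that 3.27% of all genes reached.

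The S-phase-linked and the constitutive class had different counts. The 20 S-phase-linked members held 19 that fell and 0 that rose; their median log2 fold change was −1.14, in a range from −1.83 for Brip1 to 0.12 for Rmi1, which did not pass. Of 13 constitutive members 5 fell (38.5%, against 24.9% of all tested genes), 1 rose and 7 did not pass. Their median was −0.21, in a range from −0.85 for Rbbp8 to 0.50 for Atr. The constitutive count depended on the scaling: 8 fell when libraries were scaled by their totals alone, which added Xrcc3, Chek2 and Rad50, and 1 (Rbbp8) passed a test against a change of 1.2-fold, while 19 S-phase-linked members passed under both settings. The summed level of the S-phase-linked members was 211, 227 and 213 CPM in control medium and 119, 119 and 119 CPM in senescent medium. That of the constitutive members was 194, 204 and 208 CPM in control medium and 182, 181 and 178 CPM in senescent medium. Neither sum overlapped between media. Among all single genes, senescent-medium libraries lay wholly below control libraries in 28.0% and wholly above in 27.8%, and the share for other sums was not computed. Topbp1 gave the largest share of the first sum and Rad50 of the second, so these sums weigh abundant genes most.

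**Figure D1:**
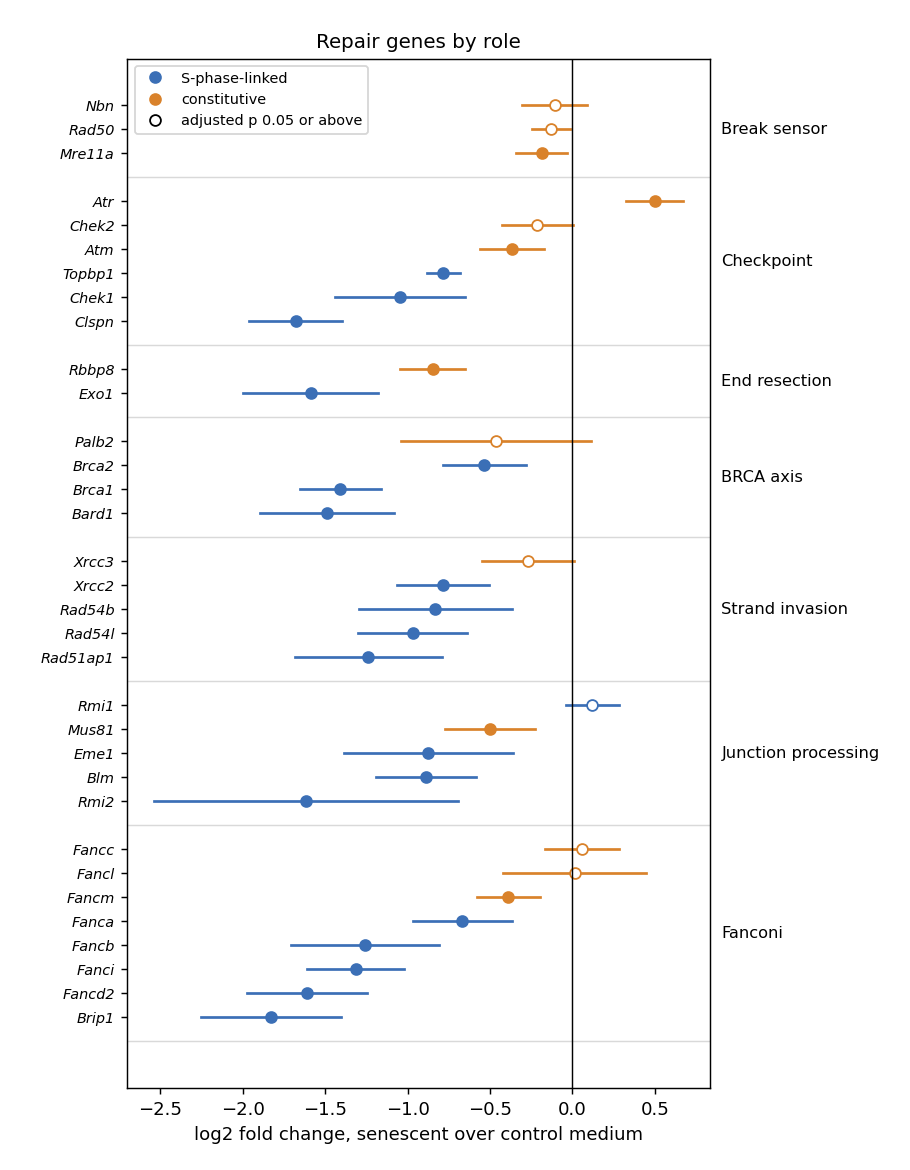
Log2 fold change (x axis, senescent over control medium) of each of the 33 members, grouped by role, with its 95% confidence interval; blue marks S-phase-linked and orange constitutive members, and open circles did not pass an adjusted p of 0.05. Filled blue circles lie left of 0 in every role that holds them, and Atr is the only filled circle to the right of 0.

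Promoters were looked at because most members fell and E2F sites are known in many genes of this class. RefSeq promoter sequences (build GRCm38.p6, 250 bases before to 50 after the annotated start) matched 25 of the 33 symbols. An E2F-type site was searched on both strands in 4 spellings: TTTCCCGC, TTTGGCGC, TTTCGCGC and TTTGCCGC. The last 2 spellings were added after the data were seen. At least 1 of the 4 was present in 6 of the 25 members (24%) and in 2.6% of the 27025 genes with a promoter in that table. With the first 2 spellings the counts were 4 of 25 members and 1.8% of all genes. These 27025 genes include ones outside the 14644 tested here, while all members were tested. The share of sites among tested genes alone was not computed. The 6 members were Topbp1, Clspn, Bard1 and Brca2, which fell, and Chek2 and Rmi1, which did not pass the threshold. Each site is given in 30 bases on the coding strand of each gene, 5′ to 3′, with the matched letters in capitals.
Topbp1 (chr9:103305187-103305216, + strand): ccgctcggttgGCGCGAAAgtcggttcccg
Clspn (chr4:126556990-126557019, + strand): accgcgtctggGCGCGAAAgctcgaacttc
Bard1 (chr1:71103163-71103192, - strand): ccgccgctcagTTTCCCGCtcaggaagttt
Brca2 (chr5:150522442-150522471, + strand): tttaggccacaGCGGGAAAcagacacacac
Chek2 (chr5:110839820-110839849, + strand): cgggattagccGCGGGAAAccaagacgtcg
Rmi1 (chr13:58402612-58402641, + strand): ccccgagggagTTTGGCGCgattggaggag

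In Topbp1, Clspn, Brca2 and Chek2 the match was on the strand opposite to the gene, and in Bard1 and Rmi1 on the same strand. It began 129 bases before the start in Topbp1, 209 before in Bard1, 168 before in Brca2 and 152 before in Chek2, and lay after the start in Clspn and in the downstream start of Rmi1, at positions 22 and 27. Thus 5 of the 15 S-phase-linked members with a promoter sequence held a site in any of the 4 spellings and 1 of the 10 constitutive ones did. With the first 2 spellings alone, 3 of the 15 and 1 of the 10 did. The classes were assigned from general knowledge that includes control by E2F, so this split is not independent of it. For the cell cycle homology region, searched as TTTGAA and TTCGAA on both strands, matches were found in 3 of 25 members (12%: Bard1, Eme1 and Atr) against 21.7% of all genes. The whole 250 bases upstream of Brca2 show how a site is placed in a member that fell.
Brca2 upstream region (chr5:150522371-150522620, + strand): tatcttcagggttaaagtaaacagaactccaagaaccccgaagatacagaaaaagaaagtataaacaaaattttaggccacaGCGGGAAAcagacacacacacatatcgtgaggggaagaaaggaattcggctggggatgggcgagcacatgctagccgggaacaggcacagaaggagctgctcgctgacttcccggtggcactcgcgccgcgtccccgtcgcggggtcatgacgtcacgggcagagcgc
Brca1 fell further than Brca2 and holds none of the 4 spellings in the window searched; the 193 bases upstream of its start are given for comparison.
Brca1 upstream region (chr11:101551956-101552148, - strand): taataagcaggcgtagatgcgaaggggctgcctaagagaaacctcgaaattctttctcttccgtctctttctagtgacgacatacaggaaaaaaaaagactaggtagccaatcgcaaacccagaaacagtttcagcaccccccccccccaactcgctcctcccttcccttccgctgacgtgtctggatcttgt
A match describes letters in a window and does not show that a factor binds there.

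The break sensor changed little. Rad50, the structural coiled-coil subunit of the MRN complex, was at 41.6, 41.3 and 42.4 CPM in control medium and 39.2, 38.5 and 36.8 CPM in senescent medium. These libraries did not overlap, but the difference was small (log2 fold change −0.13 ± 0.057, adjusted p = 0.0606, edgeR), where ± after a log2 fold change is its SE; after a CPM mean it is the SD over 3 libraries. Mre11a (now Mre11), the nuclease subunit, was at 22.6, 22.7 and 22.1 CPM against 20.9, 19.0 and 19.2 CPM and fell narrowly (−0.19 ± 0.076, adjusted p = 0.0423, edgeR). Its call was lost with DESeq2 (adjusted p = 0.115), without a filter on low counts (0.0537, edgeR) and without any one library other than senescent-medium replicate 1 (0.0625 to 0.133, edgeR). Nbn, which ties the complex to ATM, had overlapping libraries at 14.5 ± 1.00 and 13.5 ± 1.34 CPM, with a 95% confidence interval of −0.30 to 0.09 for its log2 fold change. The lower bounds of all 3 subunits, −0.34 for the deepest, lay above the S-phase-linked median of −1.14.

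Among the checkpoint genes the apical kinase Atr rose, while Topbp1, Clspn and Chek1, which act with it, fell. Checkpoint genes outside the members were split. Atrip, the gene of ATR's binding partner, was at −0.0076 ± 0.089 (adjusted p = 0.952, edgeR). Rad9a, Hus1, Rad1 and Rad17, which encode the clamp and its loader, lay between −0.20 and 0.07 and did not pass. Etaa1 (−0.59 ± 0.12), Timeless (−0.81 ± 0.11) and Tipin (−0.57 ± 0.094) fell. Atr, which is activated at stalled forks, was at 17.6, 23.1 and 22.2 CPM in control medium and 28.3, 28.7 and 32.2 CPM in senescent medium. All senescent-medium libraries were above all control libraries, a rise of 0.50 ± 0.085 on the log2 scale (adjusted p = 2.08e-05, edgeR). Topbp1, whose protein activates ATR, was the most abundant member per transcript length and fell from 77.0, 80.7 and 78.8 CPM to 46.0, 46.1 and 45.2 CPM. Its log2 fold change of −0.78 ± 0.049 had the smallest adjusted p of all members (1.49e-14, edgeR). Clspn encodes claspin, the adaptor that brings CHEK1 to ATR, and went from 13.2, 15.3 and 13.9 CPM to 3.79, 3.62 and 5.77 CPM. This fall to 31.2% of control (−1.68 ± 0.14, adjusted p = 4.29e-11, edgeR) was larger than the spread within either medium.

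The effector kinases differed in size of change. Chek1, the kinase that ATR phosphorylates, was at 4.39, 5.77 and 5.01 CPM in control medium and at 2.30, 3.20 and 1.92 CPM in senescent medium (−1.04 ± 0.19, adjusted p = 3.77e-05, edgeR). Chek2, the kinase downstream of ATM, had overlapping libraries at 12.3 ± 1.62 and 10.6 ± 0.508 CPM and did not pass (−0.21 ± 0.11, adjusted p = 0.101, edgeR); it passed without control replicate 1 (adjusted p = 0.0159, edgeR). Atm, the kinase recruited by MRN, was at 21.0, 27.0 and 26.6 CPM against 20.8, 17.1 and 20.0 CPM. Its control replicate 1 lay just above the highest senescent-medium library, and the gene fell by 0.37 on the log2 scale (± 0.093, adjusted p = 0.00233, edgeR).

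Both genes of end resection fell. Exo1 encodes the exonuclease of long-range resection and went from 5.30, 4.57 and 5.12 CPM to 1.58, 1.38 and 1.97 CPM (−1.59 ± 0.20, adjusted p = 7.59e-08, edgeR). Rbbp8 encodes CtIP, the cofactor with which MRN starts resection. It had been placed in the constitutive class but was at 17.2, 15.7 and 17.9 CPM in control medium and 8.93, 9.38 and 9.90 CPM in senescent medium, with no overlap. Its fall of −0.85 ± 0.097 (adjusted p = 1.14e-08, edgeR) was the deepest in that class and was larger than the estimates for Rad54b, Xrcc2, Topbp1, Fanca and Brca2 in the S-phase-linked class; those differences were not tested.

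**Figure D2:**
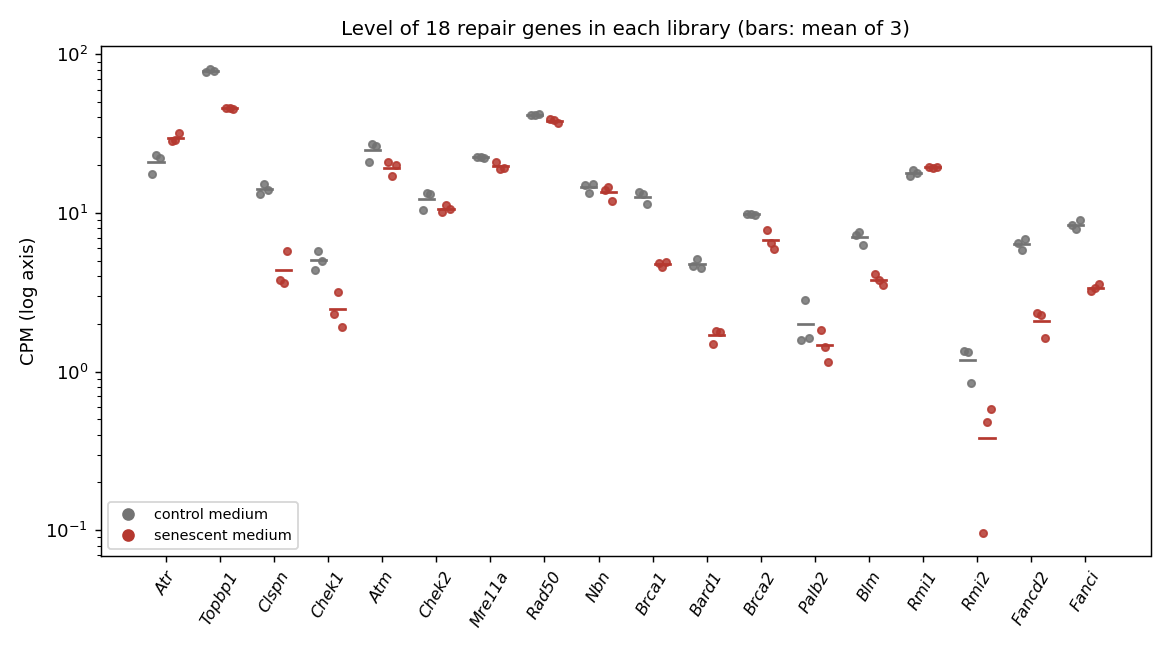
Level (y axis, CPM, log axis) of 18 members in each of the 6 libraries, control medium in grey and senescent medium in red, with a bar at the mean of 3 libraries. For Brca1 and Bard1 all red points lie below the grey ones, for Nbn they overlap, and for Atr they lie above.

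In the BRCA axis the ubiquitin ligase pair fell furthest. Brca1 was at 13.5, 13.2 and 11.4 CPM in control medium and 4.85, 4.58 and 4.90 CPM in senescent medium, 37.7% of control (−1.41 ± 0.12, adjusted p = 2.95e-11, edgeR). Bard1, which encodes its obligate partner, went from 4.62, 5.12 and 4.50 CPM to 1.49, 1.81 and 1.78 CPM (−1.49 ± 0.20, adjusted p = 2.01e-07, edgeR). Brca2, which acts after resection to prepare the single strand for invasion, was nearly even across control libraries at 9.80, 9.87 and 9.73 CPM and fell to 7.82, 6.50 and 5.96 CPM. That change was smaller (−0.53 ± 0.12, adjusted p = 0.000534, edgeR). Palb2, which bridges BRCA1 and BRCA2, was low at 1.58, 2.81 and 1.63 CPM against 1.82, 1.44 and 1.15 CPM, with overlapping libraries. At this depth its log2 fold change has a 95% confidence interval of −1.04 to 0.11, and without control replicate 2 the estimate moved from −0.47 to −0.12.

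Of 5 genes that help strand invasion, 4 fell. Rad51ap1, which stimulates strand invasion, was at 5.18, 6.04 and 3.77 CPM in control medium and 2.26, 1.38 and 2.69 CPM in senescent medium (−1.24 ± 0.22, adjusted p = 2.62e-05, edgeR). The DNA translocase gene Rad54l had the tightest control libraries of the group, at 5.92, 5.86 and 5.85 CPM, and was at 3.22, 3.20 and 2.60 CPM in senescent medium (−0.97 ± 0.16, adjusted p = 9.22e-06, edgeR). Exons of Lrrc41, on the opposite strand, cover 15.4% of the Rad54l exon length; Lrrc41 was far more abundant (99.7 CPM in control medium) and fell by 0.26 on the log2 scale, and the share of its reads in the Rad54l counts was not tested. Rad54b, a relative of Rad54l, fell by 0.83 on the log2 scale, with senescent-medium replicate 3 at 3.08 CPM, close to the lowest control library at 3.41 CPM. In the GENCODE M21 annotation 35.8% of the Rad54b exon length is shared with Fsbp on the same strand, so its counts may include reads of Fsbp, which also fell (−0.97 ± 0.37, adjusted p = 0.0286, edgeR). Xrcc2 and Xrcc3, whose proteins also promote strand invasion, gave −0.78 ± 0.14 (adjusted p = 1.49e-05, edgeR) and −0.27 ± 0.14 (adjusted p = 0.106, edgeR); Xrcc3 passed without senescent-medium replicate 2 (0.0481, edgeR).

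Among genes that process recombination junctions, Rmi1 stood apart from its complex. BLM helicase, with topoisomerase 3 alpha, RMI1 and RMI2, dissolves double Holliday junctions. Blm was at 7.27, 7.56 and 6.30 CPM in control medium and 4.13, 3.78 and 3.51 CPM in senescent medium (−0.89 ± 0.15, adjusted p = 8.67e-06, edgeR). Rmi2 was the member with the lowest level, with 24, 29 and 15 counts against 2, 9 and 12, and fell (−1.62 ± 0.45, adjusted p = 0.00358, edgeR). Rmi1 was at 17.1, 18.5 and 17.8 CPM in control medium and 19.4, 19.3 and 19.5 CPM in senescent medium. These libraries did not overlap, yet the difference of 0.12 ± 0.080 did not pass (adjusted p = 0.214, edgeR). Exons of Hnrnpk, on the opposite strand, cover 5.0% of the Rmi1 exon length. Hnrnpk was far more abundant (259 CPM in control and 266 CPM in senescent medium) and did not pass (0.04 ± 0.035). The share of its reads in the Rmi1 counts, and so in both ratios to Rmi1 below, was not tested. The nuclease pair that cuts recombination junctions fell, Eme1 from 2.54 ± 0.435 to 1.39 ± 0.241 CPM (−0.87 ± 0.25, adjusted p = 0.00461, edgeR) and Mus81 from 10.1 ± 1.09 to 7.15 ± 1.42 CPM (−0.50 ± 0.13, adjusted p = 0.00245, edgeR). On the opposite strand, Lrrc59 (255 CPM in control medium) covers 8.0% of the Eme1 exon length. Efemp2 (869 CPM in control medium, log2 fold change 0.15) likewise covers 4.85% of that of Mus81. The share of their reads in the counts of the pair was not tested.

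Of the 8 Fanconi genes 6 fell. Brip1, the helicase also known as FANCJ, had the deepest fall of all members, from 6.54, 11.4 and 8.66 CPM to 3.12, 2.34 and 2.07 CPM (−1.83 ± 0.20, adjusted p = 3.64e-07, edgeR). Its control libraries spread more than those of most members, yet the lowest was above every senescent-medium library. Fancd2 and Fanci encode the clamp that is monoubiquitinated at a crosslink. Fancd2 went from 6.48, 5.86 and 6.86 CPM to 2.35, 2.29 and 1.63 CPM (−1.61 ± 0.18, adjusted p = 6.50e-09, edgeR) and Fanci from 8.34, 7.89 and 9.05 CPM to 3.22, 3.36 and 3.56 CPM (−1.32 ± 0.14, adjusted p = 4.91e-09, edgeR). Exons of Polg, on the opposite strand, cover 16.0% of the Fanci exon length, and Polg fell by only 0.18 on the log2 scale.

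The Fanconi core complex, which attaches that ubiquitin, was uneven. Fancb fell from 4.01 ± 0.444 to 1.69 ± 0.453 CPM (−1.26 ± 0.22, adjusted p = 1.58e-05, edgeR) and Fanca from 7.48 ± 0.823 to 4.73 ± 0.758 CPM (−0.67 ± 0.15, adjusted p = 0.000338, edgeR). Fancm, the translocase that anchors the complex on DNA, fell from 16.8 ± 1.48 to 12.8 ± 0.757 CPM (−0.39 ± 0.093, adjusted p = 0.000857, edgeR). Zfp276, which covers 10.5% of the Fanca exon length on the opposite strand, rose by 0.43 on the log2 scale. Fancl, the ubiquitin ligase itself, of whose exon length 13.7% is covered by Vrk2 on the opposite strand, was low in both media at 2.55 ± 0.363 and 2.59 ± 0.214 CPM, and Fancc was at 9.62 ± 0.861 and 10.1 ± 0.358 CPM. Both overlapped between media, and the sign of both differences turned when libraries were scaled by their totals (log2 fold changes of 0.01 and 0.06 became −0.067 and −0.022). The 95% confidence intervals, −0.42 to 0.45 for Fancl and −0.16 to 0.28 for Fancc, lay above that of Fancb (−1.71 to −0.81); the interval of Fancl overlapped that of Fanca (−0.97 to −0.37), and none of these differences was tested.

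Per kilobase of the longest coding transcript, the control levels of the members ran from 0.315 CPM for Rmi2 to 15.1 CPM for Topbp1. Rad50 (8.11 CPM per kilobase), Nbn (5.74), Chek2 (5.40), Mus81 (4.91), Rbbp8 (4.82), Rmi1 (4.22) and Mre11a (3.97) followed Topbp1, and of these 7 only Rmi1 had been assigned to the S-phase-linked class. The lowest levels after Rmi2 were those of Palb2 (0.535), Exo1 (0.641), Bard1 (0.839) and Brca2 (0.914). Members were low in this culture, with a median of 8.49 CPM in control medium against 19.3 CPM over all tested genes, and 9 of the 33 were below 5 CPM. A transcript of another length in use would move these per-length values but not the fold changes.

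Ratios between the genes of 11 partner pairs were computed within each library, which removes library scaling. An exact two-sided permutation test of 3 against 3 libraries cannot go below p = 0.1, so none of the pairs could reach 0.05. In 4 pairs the libraries of the 2 media did not overlap (exact p = 0.1, adjusted 0.275 over the pairs, permutation test). The share of other gene pairs that separate in this way was not computed. Among all single genes, senescent-medium libraries lay wholly below control libraries in 28.0% and wholly above in 27.8%. Blm to Rmi1 and Rmi2 to Rmi1 have Rmi1 in common and are not independent. The log2 ratio of Chek1 to Atr was −2.00, −2.00 and −2.14 in control medium and −3.60, −3.16 and −4.05 in senescent medium, and the mean ratio was 34.0% of that in control medium. For Blm to Rmi1 it was −1.23, −1.29 and −1.49 against −2.23, −2.34 and −2.46, so the mean ratio was 49.8% of that in control medium. Rmi2 to Rmi1 moved from −3.63, −3.77 and −4.35 to −7.34, −5.25 and −5.02; the lowest value rests on 2 Rmi2 counts in senescent-medium replicate 1, and without that library the difference of −1.95 became −1.22. Fancd2 to Fanci moved by −0.30, which became −0.10 without senescent-medium replicate 3.

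The other 7 pairs had overlapping ratios. Brca1 to Bard1 was 1.54, 1.37 and 1.33 in control medium and 1.69, 1.33 and 1.45 in senescent medium, a difference of 0.08 ± 0.12 (SE). Mre11a to Rad50 differed by −0.06 ± 0.039 and Nbn to Rad50 by 0.02 ± 0.081. Chek2 to Atm differed by 0.16 ± 0.13, Brca2 to Palb2 by −0.13 ± 0.27, Eme1 to Mus81 by −0.34 ± 0.38 and Rad54l to Rad54b by −0.08 ± 0.41. For the last 3 pairs, each with a gene at low counts, the SE was close to or above the size of the Fancd2 to Fanci difference.

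**Figure D3:**
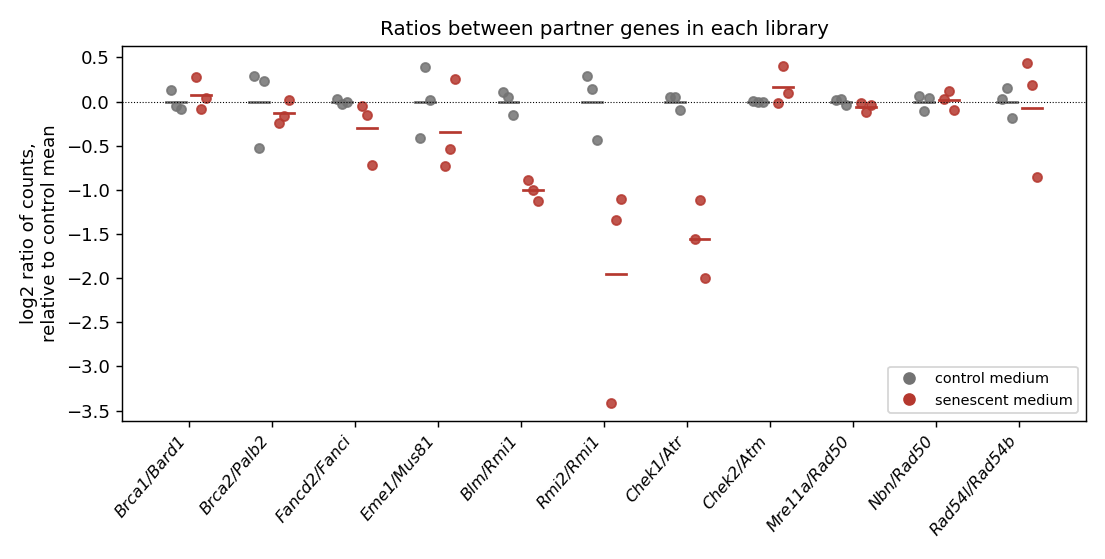
Log2 ratio of counts of 2 partner genes (y axis, relative to the control mean of that pair) in each library, control medium in grey and senescent medium in red, with a bar at the mean. Red points lie below grey ones in Fancd2/Fanci, Blm/Rmi1, Rmi2/Rmi1 and Chek1/Atr, and overlap them in the other 7 pairs.

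Further genes of the same pathways were read from lists of their own. Over all tested genes 24.9% were called lower and 24.6% higher. Among 25 other tested recombination genes there were 15 that fell and 1 that rose, Swi5, and the list's median log2 fold change was −0.45. Fignl1, an AAA ATPase gene of recombination, gave −1.52 ± 0.12 (adjusted p = 6.11e-12, edgeR). The 20 other Fanconi genes (median −0.27) held 11 that fell and 0 that rose, among them the deubiquitinase gene Usp1 (−0.78 ± 0.073) and the ubiquitin ligase gene Rfwd3 (−0.41 ± 0.062). The 16 other checkpoint genes (median −0.38) held 9 that fell and 0 that rose, among them H2afx, the histone variant phosphorylated at breaks (−1.04 ± 0.059), and the ubiquitin ligase gene Rad18 (−0.73 ± 0.088). End joining, which needs no sister chromatid, is the other main route of break repair. Its 18 tested genes had a median of −0.06, with 6 lower (33.3%) and 4 higher (22.2%), shares near those of all tested genes. The ligase gene of end joining, Lig4, fell (−0.56 ± 0.088), as did Paxip1 (−0.42 ± 0.089). Xrcc5, the gene of the end-binding protein Ku80, rose by 0.25 ± 0.085. That call was lost with library totals alone (adjusted p = 0.0975, edgeR) and without senescent-medium replicate 3 (0.0901, edgeR). Xrcc6, the gene of Ku80's partner Ku70, moved the other way and fell (−0.29 ± 0.095, adjusted p = 0.0126, edgeR). Trp53bp1 was at −0.06 ± 0.061 (adjusted p = 0.415, edgeR).

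Genes of DNA replication and mitosis were lower in the same libraries. Of 30 replication genes 29 passed as lower; the list's median log2 fold change was −0.79 and its summed level was 1009 to 1049 CPM in control medium and 652 to 653 CPM in senescent medium. All 20 mitosis genes fell, with a median of −1.42 and sums of 846 to 876 CPM against 307 to 325 CPM. The median of the S-phase-linked repair genes (−1.14) lay between those of the 2 lists, and that of the constitutive ones (−0.21) lay nearer to 0 than both. The part of a lower share of cycling cells in the change of each repair gene was not tested.

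**Figure D4:**
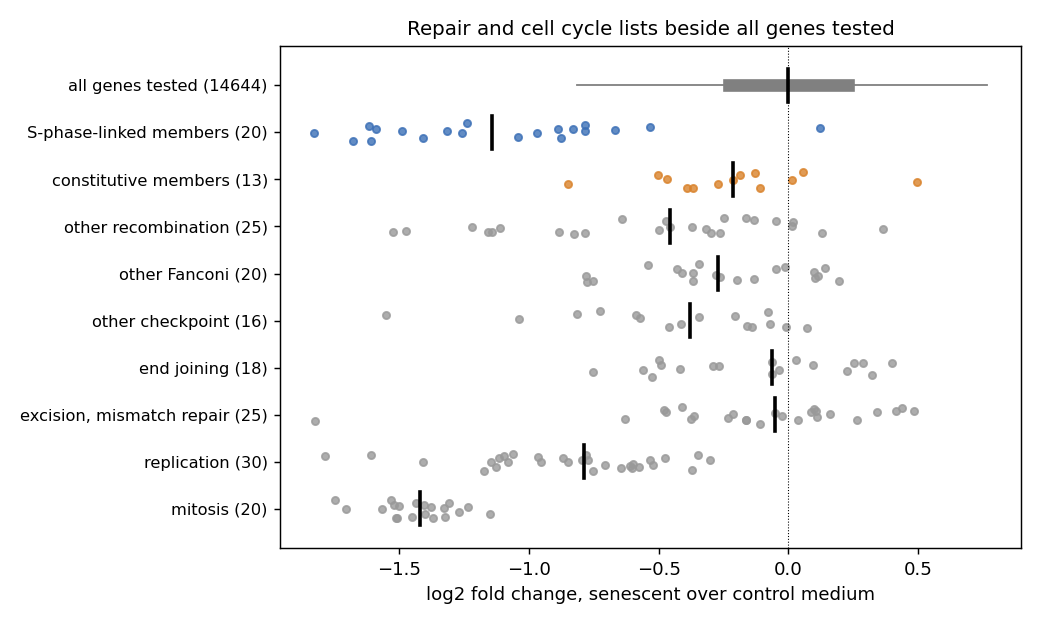
Log2 fold change (x axis, senescent over control medium) of single genes in each list, with the number tested in parentheses and a black line at the median; for all genes tested, the thick bar runs from percentile 25 to 75 and the thin line from 5 to 95. S-phase-linked members other than Rmi1 (0.12) lie with replication and mitosis genes to the left of 0, and constitutive members and end joining genes spread on both sides of it.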

How the data were processed

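The authors deposited raw estimated counts by Ensembl identifier in 1 table that covers all 6 libraries. The build mm39 and the tools STAR and DESeq2 appear, without a role, per the submitters' processing notes. Counting tool, annotation and strand setting: not given in the sources used here. Reads of overlapping genes on opposite strands may be counted together. Values were rounded before testing; by library, 70.3% to 72.8% of them were already whole to within 0.01. Every listed gene sums to at least 10 counts. Per the labels' protocols, libraries were made from about 600 ng of RNA and read as 150 bp pairs. Symbols came from GENCODE M21 (GRCm38) by Ensembl identifier, for 99.8% of identifiers. No coordinates of the count table are given; promoter coordinates are those of the RefSeq table. In GENCODE M21 6 members share over 10% of their exon length with another gene.

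Medium was the only term of the quasi-likelihood test of edgeR 4.0.16 (R 4.3.3; TMM scaling, robust dispersion, edgeR's expression filter), two-sided, with Benjamini-Hochberg adjustment over 14644 genes. The SE was taken as the size of the log2 fold change over the root of its F statistic. CPM uses TMM-adjusted library sizes. Partner ratios used log2(count + 0.5). The test was first checked on simulated counts. Alternatives were DESeq2 1.42.0, limma-voom (limma 3.58.1), other scalings and filters, a threshold of 0.01, a test against 1.2-fold, the replicate number as a block and each library left out. Named genes are all members, the 2 with the smallest adjusted p in each other list, and a fixed set. Some further genes of the lists were named after their values were seen. Members, classes and lists were chosen with earlier results of these data known. Of the fixed set and these 2 per list, those not named in the report are given in the closing section, or stand only within the counts of their list. The value of 1 gene of the fixed set is not reported here.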

Additional observations from a re-analysis of the deposited data

How the results depend on the processing

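The counts of members that fell and of the S-phase-linked members that fell stayed within 1.5 times under every alternative run: 20 to 27 members and 19 S-phase-linked members, with 1 member (Atr) higher throughout. Of the constitutive members, 5 became 8 with library totals and 1 with the test against 1.2-fold, a setting that asks for larger changes by construction. Over all genes, 3607 higher and 3644 lower became 2589 and 4813 with library totals, which shifted the median of all genes by −0.08, and 7251 calls became 2948 with the test against 1.2-fold. That test also left 5 of 11 fallen genes among the other Fanconi genes, 5 of 8 among the excision and mismatch genes and 0 of 4 risen end joining genes, and a threshold of 0.01 left 7 of the 11. The 1 fallen break sensor subunit (Mre11a) became 0 in most settings and 2 with library totals; the cause was not tested. Reversed log2 fold changes were Fancc (−0.022) and Fancl (−0.067) with library totals, where Ly6a also turned to −0.048, and Fancl ran from −0.097 to 0.095 when each library was left out. Leaving out each library, 4 to 6 partner pairs had separate ratios, and differences that changed sign ran from −0.023 to 0.16 for Brca1/Bard1, −0.39 to 0.016 for Brca2/Palb2, −0.032 to 0.077 for Nbn/Rad50 and −0.33 to 0.32 for Rad54l/Rad54b. Counting the 33 members under the alternatives that were refitted, which leaves out the threshold of 0.01 (23 members lower, 1 fewer), 441 results kept their direction and side of the threshold, 11 lost and 5 gained a call, and 5 reversed. Replicate numbers are shared by the 2 media, but deviations of same-numbered libraries did not correlate (r = 0.019, 0.0019 and 0.026). With 3 libraries for each medium, that check cannot exclude a culture or day shared by same-numbered libraries. With the replicate block 24 members fell, 19 of them S-phase-linked, and 4 partner pairs moved one way in all 3 numbers. Depth limits the members with the fewest counts, of which the lowest value was 2.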

Other observations

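Repair genes outside recombination split by kind. The 25 excision and mismatch repair genes, with 8 lower (32.0%) and 4 higher (16.0%), had a median log2 fold change of −0.05. Over all tested genes 24.9% were called lower and 24.6% higher. The mismatch recognition gene Msh6 fell from 47.9 to 30.9 CPM (−0.63 ± 0.059, SE) and Parp1, which senses single-strand breaks, from 51.6 to 38.8 CPM (−0.41 ± 0.055). Of the same list Neil3, a DNA glycosylase gene, had the deepest fall (−1.83 ± 0.26), and the nucleotide excision genes Xpa (0.49 ± 0.12) and Xpc (0.41 ± 0.094) rose; these 3 were named after their values were seen.

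The 14 targets of p53, the transcription factor that damage kinases activate, had a median of 0.11, with 7 higher and 3 lower; with library totals 4 rose and 5 fell. Gadd45a rose from 12.8 to 33.8 CPM (1.40 ± 0.079) and Bbc3 from 17.6 to 34.0 CPM (0.95 ± 0.073), both of which respond to other stresses as well. The 3 that fell were Sesn1 (−0.80 ± 0.082), Phlda3 (−0.22 ± 0.033) and Bax (−0.13 ± 0.040). Cdkn1a, the gene of the cell cycle inhibitor p21, rose by 0.15 ± 0.032, a call lost with library totals alone (adjusted p = 0.0665, edgeR).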
